A study of Mus musculus with 10 samples.

Results

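The 34 genes described here encode the machinery of autophagy and its cargo receptors, from the kinase complex that starts the process to the transcription factors that govern it. They were taken as a list of gene names from a table of 24453 genes, and all 34 were present. Expression was measured by RNA sequencing of microglia, which are brain macrophages, taken from untreated C57BL/6 mice by magnetic sorting (MACS). The 10 libraries formed 4 groups in 2 comparisons. The first set 3 libraries from mice aged 15 months (aged) against 3 from mice aged 10 weeks (young). The other set 2 libraries labelled Rab7 deltaMG against 2 labelled Rab7 control, all from mice aged 3 months. The series calls the deltaMG mice null mutants of Rab7, a GTPase gene of the late endosomal route. The alleles, the driver of the deletion and what the controls carry of it were not given in the sources used here.

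In autophagy a cup of membrane grows around cytoplasm, closes into an autophagosome and fuses with a lysosome, where the contents are degraded. Ubiquitin-like proteins of the Atg8 family are attached to the growing membrane, and receptors such as p62 link ubiquitin-tagged cargo to them. RAB7 acts at the last stage, when autophagosomes and late endosomes meet lysosomes, and microglia depend on that route to digest what they engulf.

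Values were RPM, reads scaled to a common library total, and the spacing of low values put that total at 6098281 to 9907489 reads per library. The listed genes held 18.7% to 23.5% of it, or 1284411 to 1855052 reads, so their summed RPM was not equal between libraries. Rab7 itself read 64.2 and 67.5 RPM in the 2 labelled control libraries and 72.2 and 79.4 RPM in the 2 labelled deltaMG libraries. Its log2 fold change was 0.20 with a limma adjusted p of 0.668 (-0.19 with a neutrophil marker score as covariate), so Rab7 does not check these labels, and the groups are named by them throughout. A gene total cannot show the loss of a few exons. Microglial markers, all 10 of which were detected, summed to 5189 to 5746 RPM in young, 3398 to 3834 RPM in aged and 4341 to 5576 RPM in the labelled libraries, and neuron and lymphocyte markers to at most 5.85 and 8.25 RPM. Xist ranged from 1715 to 1771 RPM in young libraries and did not exceed 0.940 RPM in aged ones, so that age and sex cannot be told apart. The libraries labelled control and deltaMG held transcripts of both sexes, with Y-linked sums of 9.11 to 25.8 RPM. Nothing in the labels ties replicates to separate animals, and the p-values cover only the spread among these libraries, which may be technical.

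The 34 genes were a small and even part of the transcriptome. They summed to 341 to 423 RPM, or 0.169% to 0.186% of the signal of all listed genes in each library, which is 2180 to 3452 reads. Of the 34, 14 reached at least 10 RPM in at least 2 of the 10 libraries and were tested among 4151 genes with limma. The other 20 were tested only in a second fit with a minimum of 1 RPM, which held 10800 genes and all 34 members. Fold changes were taken on log2(RPM + 1), a scale that understates changes of low genes.

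Levels between genes were compared per kilobase of annotated exon. On that scale Gabarap was highest, with a mean over all libraries of 9.16 RPM per kb, followed by Ulk2 at 5.84, Sqstm1 at 5.46 and Nbr1 at 4.72 RPM per kb. The lowest were Optn at 0.386, Atg16l1 at 0.321 and Wipi1 at 0.303 RPM per kb. Long annotated 3' ends lower this measure where a microglial transcript is shorter than the annotation.

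**Figure D1:**
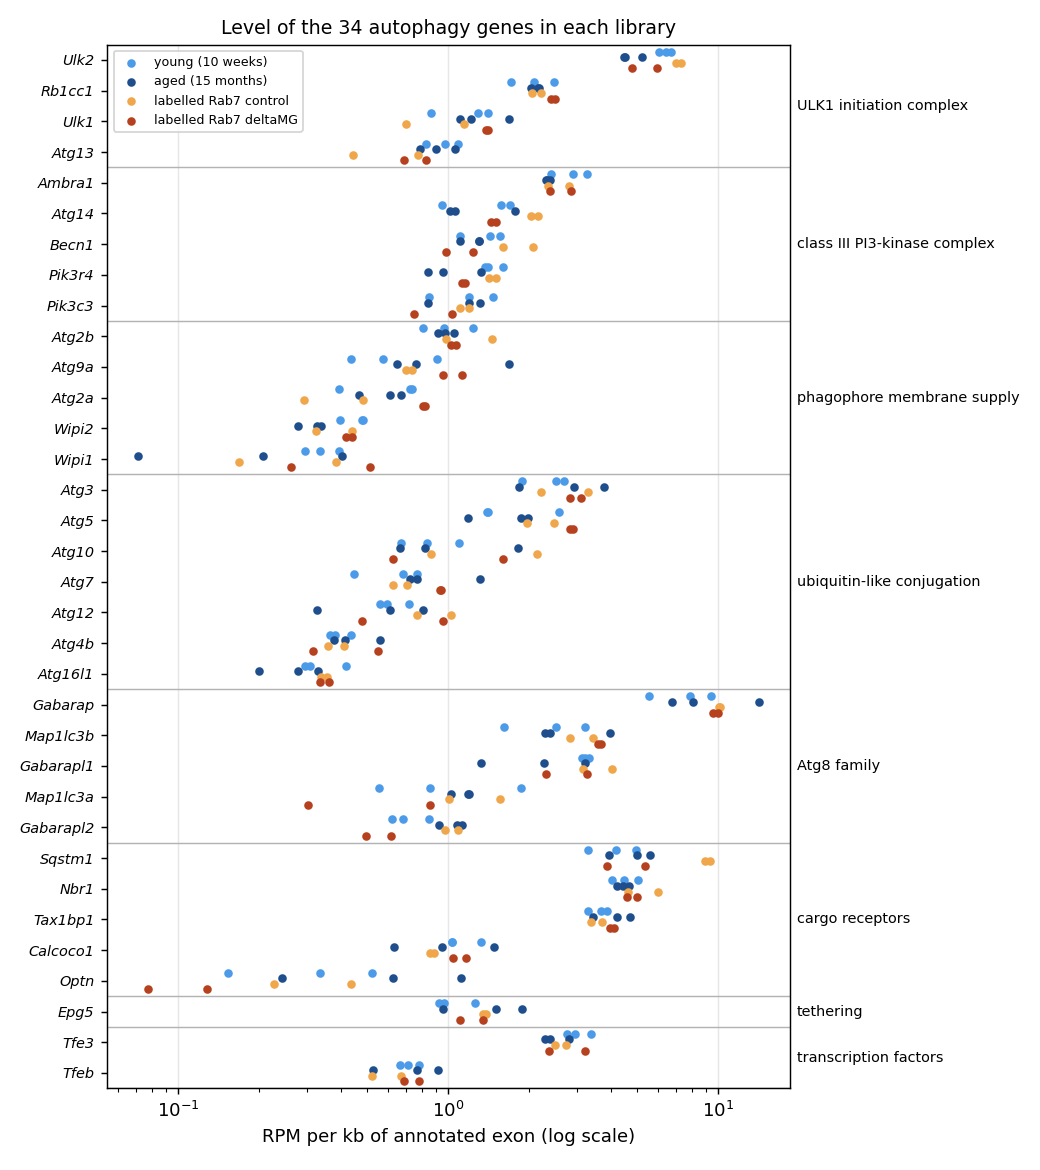
Level of each of the 34 genes in each library, in RPM per kilobase of annotated exon on a log scale, with genes grouped by role and 1 point per library coloured by group. Gabarap, Ulk2, Sqstm1 and Nbr1 had the highest means, and in Sqstm1 the 2 libraries labelled control lie apart from the other 8.

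In the ageing comparison none of the 34 genes passed the test. None of the 14 tested members was called at a limma adjusted p under 0.05, where 6.14% of all tested genes were, and 2 members had an unadjusted p under 0.05. The median log2 fold change of the 14 members was 0.01, beside -0.05 for all tested genes, and the 95% intervals of all 14 lay within a 2-fold change in either direction. In the fit that held all 34 members none was called either, against 3.44% of its genes. There 30 of 34 intervals lay within 2-fold of RPM + 1, which for members near 1 RPM does not bound the change in RPM. Ranges of the aged and young libraries did not overlap for 3 of the 14 members, all lower in aged libraries, against 23.9% of tested genes in either direction and 15.5% lower. These were Ulk2, Pik3r4 and Ambra1. Microglial markers were also lower in every aged library, with a median log2 fold change of -0.53 and 5 of 10 called lower. Monocyte markers had a median of 1.34 with 4 of 7 tested called higher, and the part of either in the levels of the members was not tested. In bulk RNA, fewer cells of a type and less RNA per cell cannot be told apart.

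Between the libraries labelled deltaMG and control, 1 of the 14 tested members was called, against 3.78% of all tested genes. This was Sqstm1, in the lower direction, in which 2.58% of tested genes were called. At the unadjusted level 3 members had a p under 0.05. The median of the 14 was -0.09, beside -0.02 for all tested genes, and 12 of the 14 intervals lay within 2-fold. In the fit with all 34 members Sqstm1 was again the member called, against 1.69% of genes, while 21 of 34 intervals lay within 2-fold of RPM + 1. With 2 libraries against 2, ranges did not overlap for 9 of the 14 members, 3 of them with labelled deltaMG higher and 6 with it lower. The background was 51.8% of all tested genes, 25.2% higher and 26.6% lower.

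**Figure D2:**
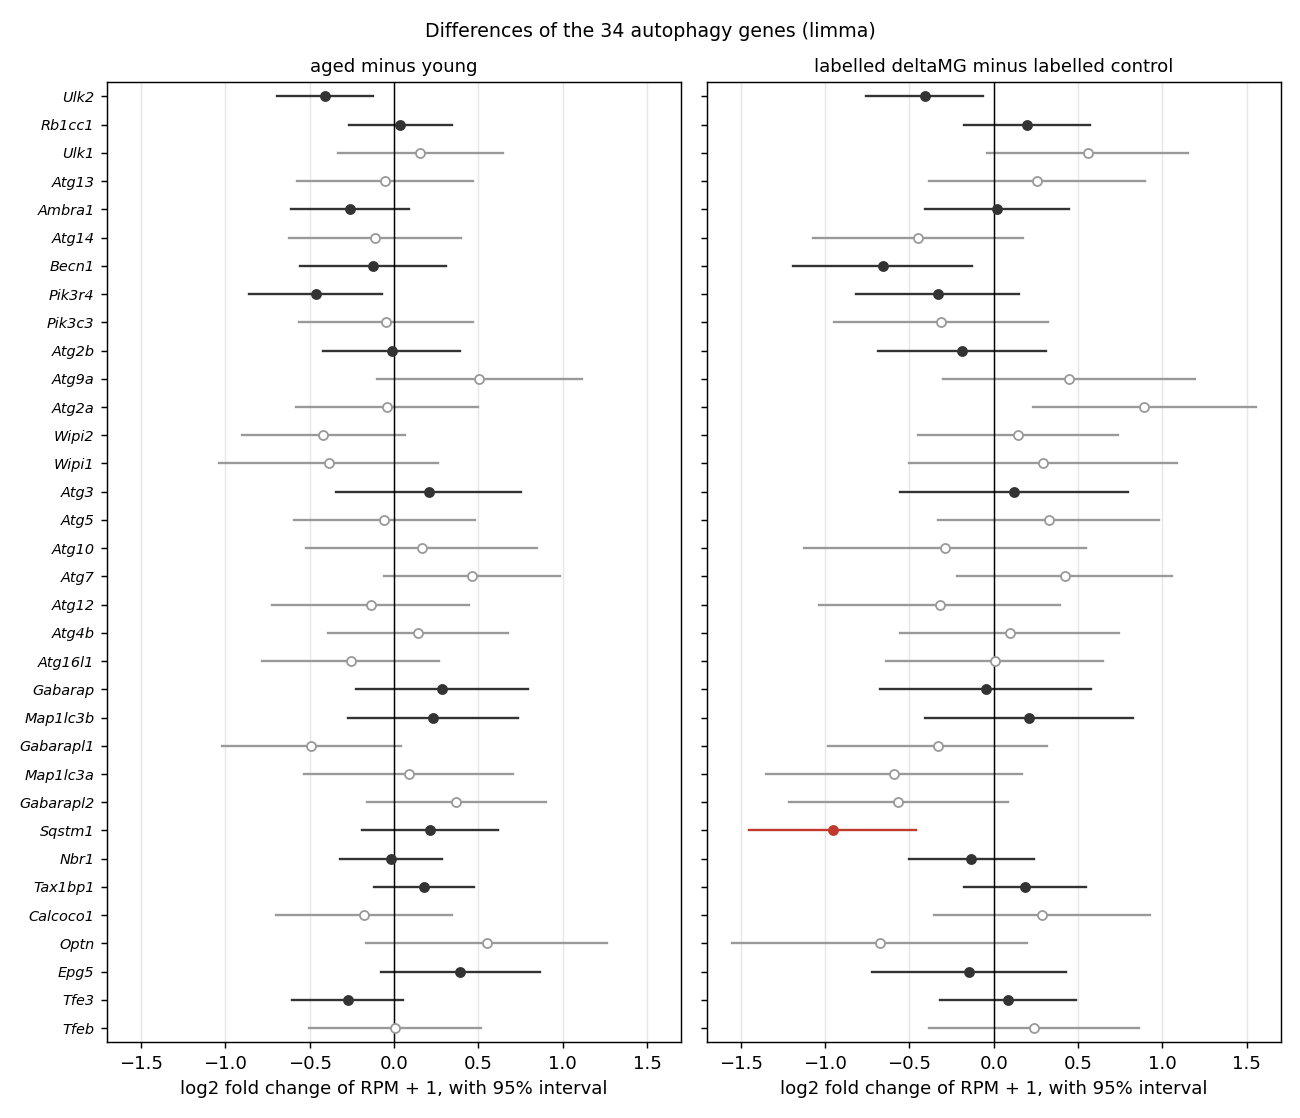
Log2 fold change of RPM + 1 with its 95% interval from limma for each of the 34 genes, aged minus young on the left and labelled deltaMG minus labelled control on the right. Black points were tested at a minimum of 10 RPM, grey open points in the fit with a minimum of 1 RPM, and red marks the gene called at an adjusted p under 0.05, which is Sqstm1 on the right.

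The cargo receptors held the member that was called in the second comparison. Sqstm1 encodes p62, a receptor that binds ubiquitin-tagged cargo and is itself degraded with it. Its upstream sequence is printed here because the gene is the called member, and that of Atg3, an enzyme that attaches Atg8 proteins to lipid, because it holds the E-box bound by the autophagy regulators TFEB and TFE3. Both are the 250 bases before the RefSeq start in GRCm38.p6, 5′ to 3′ on the gene's own strand. Sqstm1 is at chr11:50210821-50211070 on the minus strand and Atg3 at chr16:45158579-45158828 on the plus strand. Capitals mark GGGCGG (the GC box) or its reverse complement in Sqstm1, and CACGTG in Atg3.
Sqstm1: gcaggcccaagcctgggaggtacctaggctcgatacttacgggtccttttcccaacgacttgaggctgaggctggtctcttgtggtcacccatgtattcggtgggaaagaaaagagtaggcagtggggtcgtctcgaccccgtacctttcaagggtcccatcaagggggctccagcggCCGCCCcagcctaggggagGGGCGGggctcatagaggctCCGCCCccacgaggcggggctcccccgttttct
Atg3: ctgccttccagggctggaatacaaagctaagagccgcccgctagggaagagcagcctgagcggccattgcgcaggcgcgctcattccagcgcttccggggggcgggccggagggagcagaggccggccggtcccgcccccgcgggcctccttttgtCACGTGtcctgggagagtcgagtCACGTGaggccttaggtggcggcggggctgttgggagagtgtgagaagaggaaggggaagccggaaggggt
The Sqstm1 window held 3 GC boxes, starting 72, 53 and 33 bases before the start, and no CACGTG. The Atg3 window held CACGTG 94 and 71 bases before the start.

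RefSeq gave promoter windows for 27 of the 34 genes, 32 windows in all. Unlike the printed sequences, the windows searched here ran on past the start, and motifs were counted on both strands. CACGTG lay in 4 windows, those of Atg7, Atg5, Atg14 and Atg3, or 12.5%, against 7.15% of 32851 windows of all genes. GGGCGG lay in 68.8% of the member windows, covering 20 genes, against 35.7% of all windows. TGACNNNGC, the core of the antioxidant response element, lay in 12.5% of member windows, those of Atg13, Tax1bp1, Map1lc3b and Ulk2, against 12.4% of all. CCAAT lay in 25% against 37.4%, and TGANTCA, the AP-1 core, in 1 window, that of Tfe3, against 7.81%. These are counts of letters in a window and say nothing of binding.

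Sqstm1 (chromosome 11, 50199366 to 50210827, minus strand, GRCm38) reached 31.4 and 30.0 RPM in the labelled control libraries, against 13.02 and 18.1 RPM in the labelled deltaMG libraries. It was at 16.7, 14.1 and 11.1 RPM in young libraries and at 18.8, 13.2 and 16.8 RPM in aged libraries. The 2 libraries labelled control were thus above all 8 others, while the libraries labelled deltaMG lay within the range of the young and aged ones. The means were 30.7 RPM ± 0.931 (SD, n = 2) in labelled control and 15.6 RPM ± 3.58 (SD, n = 2) in labelled deltaMG libraries. This is a 1.94-fold lower level, a log2 fold change of -0.95 (SE 0.23, 95% interval -1.45 to -0.46) with a limma adjusted p of 0.0353. Between aged and young libraries it was 0.21 with an adjusted p of 0.582. The difference between these effects was -1.16 with a limma adjusted p of 0.0375, and it was the 1 of 14 members called for that contrast, against 4.79% of tested genes in either direction and 2.67% in the lower one.

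The read numbers behind these values were modest. Sqstm1 had 211 and 213 reads in the libraries labelled control, 109 and 125 in those labelled deltaMG and 77 to 132 in the other 6. Exact 95% Poisson intervals, which cover counting error only, ran from 26.1 to 35.9 RPM over the libraries labelled control and reached at most 22.5 RPM in any other library. The intervals of the 2 sets of libraries did not meet, which restates the values behind the call and is no further test of it. Sqstm1 and Mrnip, on opposite strands, share 580 exon bases, and Mrnip was at 1.14 to 3.43 RPM.

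The Sqstm1 call rested on few libraries and on choices in the fit. It was kept in 16 of 23 other settings, with the log2 fold change negative in all 23, from -1.18 to -0.73. With every library kept, the call was lost with no filter, with no trend in the prior variance and with replicate number as a block. It was lost without labelled control replicate 1 (adjusted p = 0.268), without labelled control replicate 2 (0.157), without labelled deltaMG replicate 1 (0.303, log2 fold change -0.73) and without young replicate 2 (0.05003). Neutrophil markers, all 12 of them detected, summed to 463 to 697 RPM in the libraries labelled control and to 1191 to 1829 RPM in those labelled deltaMG. With a neutrophil score of each library as covariate the log2 fold change was -1.13 with a limma adjusted p of 0.0129. That score was 4.97 and 4.35 in labelled control libraries and 6.45 and 5.88 in labelled deltaMG libraries. Score and label thus cannot be told apart among these libraries, and the covariate fit cannot settle the part of neutrophils. Monocyte markers summed to 64.9 to 104 RPM and 186 to 251 RPM in the same groups. Astrocyte markers, 3 of 7 of which were at or under 1 RPM in all libraries, had sums of 55.9 and 49.4 RPM in labelled control, 34.05 and 41.1 RPM in labelled deltaMG and at most 47.7 RPM in the other 6 libraries. The part of monocytes and astrocytes in the result was not tested. Higher levels in both libraries labelled control than in all 8 others were found for 14.5% of tested genes. Among the 14 members this held for 3, Sqstm1, Ulk2 and Becn1.

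**Figure D3:**
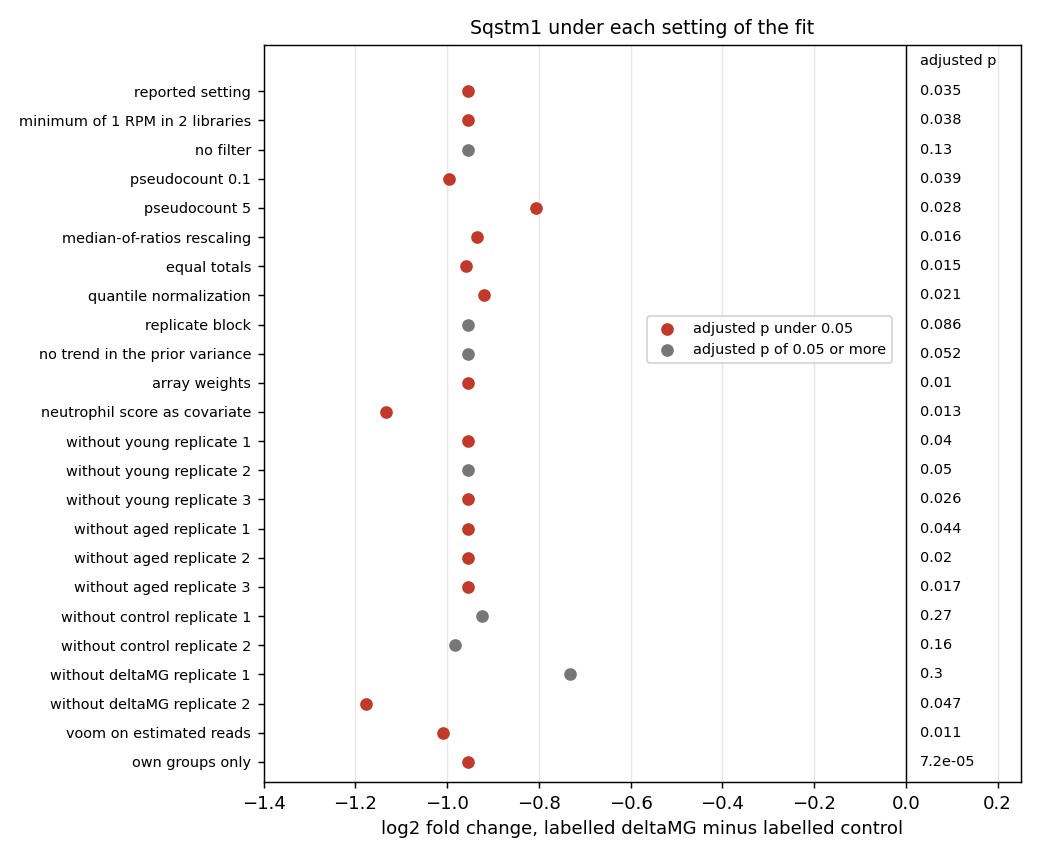
Log2 fold change of Sqstm1, labelled deltaMG minus labelled control, under the reported setting and 23 others, with red for an adjusted p under 0.05, grey for one of 0.05 or more and the adjusted p at the right. All points lie left of 0, between -1.18 and -0.73, and the 3 highest adjusted p values come from leaving out labelled deltaMG replicate 1 (0.303) or either library labelled control (0.268 and 0.157).

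For none of the other receptors were both libraries labelled control above every other library. Tax1bp1, a receptor for ubiquitin-tagged cargo and protein aggregates, took the most reads of the 5, without regard to length. It was at 38.8, 36.7 and 33.0 RPM in young, 42.1, 34.5 and 47.0 RPM in aged, 37.1 and 33.8 RPM in labelled control and 39.9 and 41.1 RPM in labelled deltaMG libraries. The labelled deltaMG libraries were above the labelled control ones, with a log2 fold change of 0.19 (limma adjusted p = 0.620), and aged and young libraries overlapped (0.18, limma adjusted p = 0.523). Nbr1, which works beside p62 and was at 27.7 to 41.2 RPM, had log2 fold changes of -0.02 in ageing and -0.13 in the labelled comparison. Calcoco1, a receptor for endoplasmic reticulum, overlapped between aged and young libraries at 3.60 to 8.48 RPM. It was at 4.90 and 5.08 RPM in labelled control and 5.97 and 6.65 RPM in labelled deltaMG libraries, which did not overlap (log2 fold change 0.29, limma adjusted p = 0.776 in the fit with a minimum of 1 RPM).

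Optn encodes optineurin, a receptor for mitochondria and bacteria, and was scarce. It was at 1.26, 1.97 and 0.576 RPM in young, 2.35, 0.909 and 4.19 RPM in aged, 1.63 and 0.846 RPM in labelled control and 0.478 and 0.289 RPM in labelled deltaMG libraries. The aged libraries overlapped the young, and the labelled deltaMG libraries were the lowest of all 10, at 2 to 33 reads per library over the series. In the fit with a minimum of 1 RPM its log2 fold change was 0.55 in ageing (limma adjusted p = 0.462), with the sign reversed to -0.091 under the neutrophil covariate. It was -0.68 in the labelled comparison (limma adjusted p = 0.547).

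Per kilobase, the shares of Sqstm1 and Tax1bp1 among the receptors set the libraries labelled control apart. Sqstm1 made up 45.9% and 49.4% of the 5 receptors' RPM per kb there, and 25.7% to 36.6% in the other 8 libraries. The share of Tax1bp1 was 18.3% and 18.7% in the libraries labelled control and 25.5% to 29.3% in the others. The Tax1bp1 level itself, 37.1 and 33.8 RPM in labelled control, lay within the young range of 33.0 to 38.8 RPM. These shares reuse the Sqstm1 values behind the call. A share within a set shows unequal change only, and no test was made on it.

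The ULK1 complex is the kinase complex that starts autophagy when nutrients fall. Ulk2, one of its kinases, was at 36.1, 38.2 and 40.01 RPM in young and at 26.8, 27.2 and 31.4 RPM in aged libraries. It was at 41.9 and 43.6 RPM in labelled control and 28.7 and 35.6 RPM in labelled deltaMG libraries. All aged libraries were below all young ones, and both labelled deltaMG libraries were below both labelled control ones. The log2 fold change was -0.41 in each comparison, with limma adjusted p of 0.0827 for ageing and 0.186 for the labels, so that neither passed. With array weights the ageing value passed at an adjusted p of 0.0430, the lowest over 23 other settings, which reached up to 0.203.

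Ulk2 held 50.6% to 67.5% of the RPM per kb of the 4 genes of this complex. Its share was 59.6% to 60.4% in young and 50.6% to 53.2% in aged libraries, and 64.8% to 67.5% in labelled control and 51.3% to 56.2% in labelled deltaMG libraries. Rb1cc1, the FIP200 scaffold of the complex, was at 25.2 to 36.3 RPM in young and 29.9 to 31.8 RPM in aged libraries, and at 32.5 and 30.0 RPM in labelled control and 36.6 and 35.4 RPM in labelled deltaMG libraries. The labelled groups did not overlap. Its log2 fold change was 0.04 in ageing and 0.20 in the labelled comparison, with limma adjusted p of 0.922 and 0.609. The kinase Ulk1, at 4.51 to 10.9 RPM, and the adaptor Atg13, at 1.93 to 4.75 RPM, were under the filter and were not called in the fit with a minimum of 1 RPM.

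The class III PI3-kinase complex makes the lipid that marks the growing membrane. Of its 5 members 3 were tested, and none was called in either comparison. Pik3r4, the VPS15 subunit, was at 13.2, 13.6 and 15.4 RPM in young and 8.15, 12.8 and 9.27 RPM in aged libraries. It was at 14.6 and 13.7 RPM in labelled control and 10.9 and 11.1 RPM in labelled deltaMG libraries. As for Ulk2, the groups did not overlap in either comparison, with aged and labelled deltaMG libraries lower. The log2 fold change was -0.46 in ageing (limma adjusted p = 0.152) and -0.33 in the labelled comparison (limma adjusted p = 0.473). Without aged replicate 2 the ageing value was -0.64 and passed, at an adjusted p of 0.0442.

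Becn1 encodes Beclin 1, the regulatory core of the same complex. It was at 14.6 and 11.2 RPM in labelled control and 6.94 and 8.71 RPM in labelled deltaMG libraries, with 10.1, 7.82 and 11.0 RPM in young and 9.20, 7.80 and 9.18 RPM in aged libraries. The libraries labelled control were again the highest of all 10. The log2 fold change was -0.66 in the labelled comparison (limma adjusted p = 0.160) and -0.12 in ageing (limma adjusted p = 0.792). Becn1 was the only member whose values were not whole reads, and it shares 3104 exon bases with Cntd1 on the opposite strand, so its level is uncertain.

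Ambra1, an activator of Beclin 1 which took the most reads of this group without regard to length, was at 20.0, 17.7 and 14.7 RPM in young and 14.6, 14.2 and 14.1 RPM in aged libraries. It was at 17.2 and 14.4 RPM in labelled control and 14.6 and 17.5 RPM in labelled deltaMG libraries. The aged libraries were below the young by a small margin, and the labelled groups overlapped. Log2 fold changes were -0.26 (limma adjusted p = 0.393) and 0.02 (limma adjusted p = 0.975). Atg14, which directs the complex to autophagy, was at 8.77 and 9.31 RPM in labelled control libraries and at most 7.67 RPM in the others. The lipid kinase subunit Pik3c3 was at 3.35 to 6.56 RPM.

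**Figure D4:**
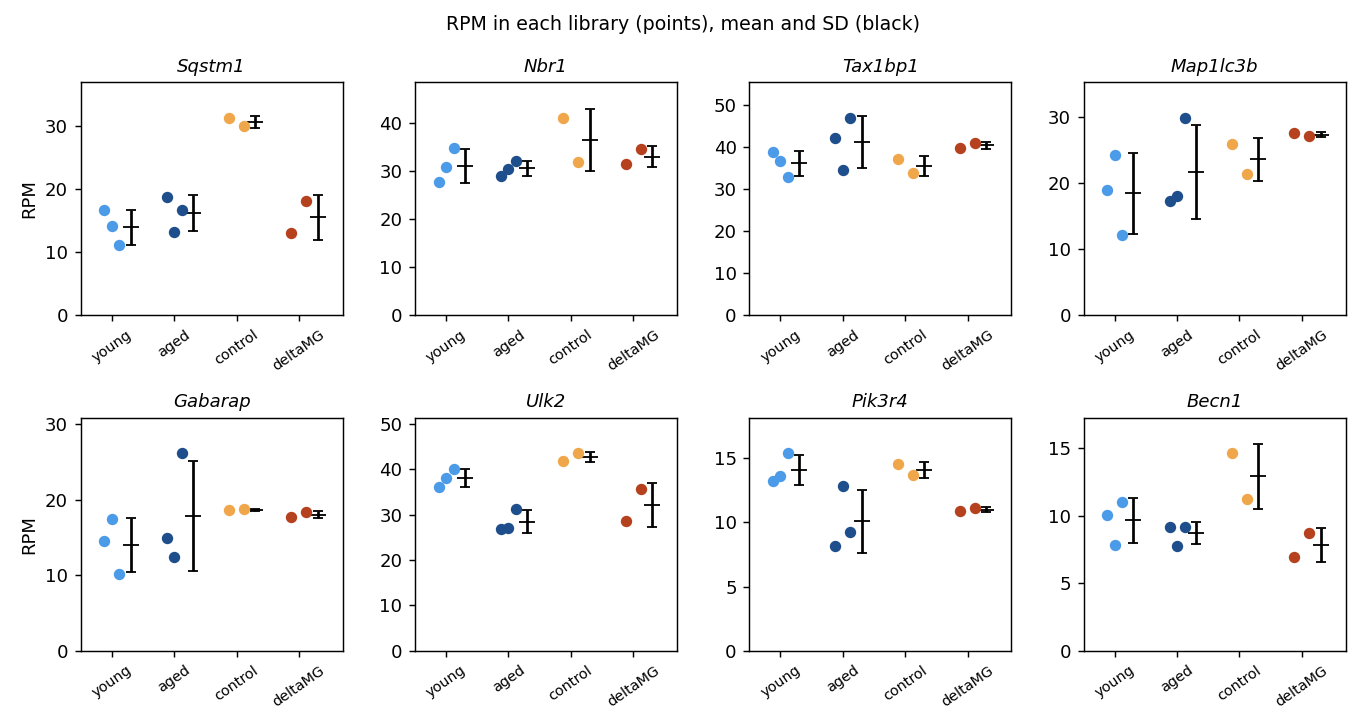
RPM in each library for 8 of the members, with the mean and SD of each group in black and every axis starting at 0, the groups marked control and deltaMG being those labelled Rab7 control and Rab7 deltaMG. Sqstm1 is near 30 RPM in the libraries labelled control and at 11.1 to 18.8 RPM elsewhere, Ulk2 and Pik3r4 are lower in aged and labelled deltaMG libraries, and 1 aged library lies highest in Map1lc3b and Gabarap.

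The 5 genes of membrane supply to the growing cup had means of 0.303 to 1.05 RPM per kb. Atg2b, a lipid transfer protein, was the 1 tested member of 5. It was at 10.9, 12.95 and 16.7 RPM in young, 12.4, 14.1 and 13.1 RPM in aged, 19.6 and 13.3 RPM in labelled control and 14.3 and 13.7 RPM in labelled deltaMG libraries, and the groups of each comparison overlapped. Its log2 fold changes were -0.01 and -0.19, with limma adjusted p of 0.974 and 0.734.

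Atg2a, its paralogue, was at 3.71 and 2.26 RPM in labelled control and 6.33 and 6.22 RPM in labelled deltaMG libraries. It was at 5.67, 5.58 and 3.02 RPM in young and 3.60, 5.15 and 4.70 RPM in aged libraries. The labelled groups did not overlap, and in the fit with a minimum of 1 RPM the log2 fold change was 0.89 with an interval of 0.23 to 1.55 (limma adjusted p = 0.196). Wipi2, which reads the lipid made by the PI3-kinase complex, was at 5.04, 5.08 and 4.17 RPM in young and 3.45, 2.93 and 3.56 RPM in aged libraries. It was at 3.42 and 4.65 RPM in labelled control and 4.42 and 4.63 RPM in labelled deltaMG libraries. All aged libraries were below the young, with a log2 fold change of -0.42 and a limma adjusted p of 0.390 in that fit. The scramblase Atg9a was at 2.52 to 9.65 RPM and Wipi1 at 0.313 to 2.27 RPM, and neither was called.

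The conjugation enzymes attach Atg8 proteins to lipid, and 1 of the 7, Atg3, passed the filter. Atg3 was at 8.51, 5.90 and 7.92 RPM in young, 9.24, 5.75 and 11.9 RPM in aged, 6.98 and 10.4 RPM in labelled control and 8.96 and 9.84 RPM in labelled deltaMG libraries. The groups overlapped in both comparisons, with log2 fold changes of 0.20 and 0.12 and limma adjusted p of 0.716 and 0.896. Atg7, the activating enzyme of both conjugation reactions, was at 4.73, 3.12 and 5.33 RPM in young and 5.01, 5.35 and 9.14 RPM in aged libraries. It was at 4.90 and 4.37 RPM in labelled control and 6.57 and 6.51 RPM in labelled deltaMG libraries. In the fit with a minimum of 1 RPM its log2 fold changes were 0.46 (limma adjusted p = 0.378) and 0.42 (limma adjusted p = 0.638). Of the other 5, Atg5, Atg12 and Atg16l1, which form the complex that places Atg8 proteins, had means of 4.83, 5.28 and 3.09 RPM. The protease Atg4b and the enzyme Atg10 had means of 3.45 and 1.91 RPM. None of the 7 was called in either comparison.

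The Atg8 family comprises LC3 and GABARAP proteins, the tags on the autophagosome membrane. Map1lc3b, which encodes LC3B, was at 18.9, 24.3 and 12.1 RPM in young, 17.2, 18.0 and 29.8 RPM in aged, 25.9 and 21.3 RPM in labelled control and 27.6 and 27.1 RPM in labelled deltaMG libraries. Aged and young libraries overlapped, and both libraries labelled deltaMG were above both labelled control. The log2 fold changes were 0.23 (limma adjusted p = 0.638) and 0.21 (limma adjusted p = 0.768). Gabarap was at 10.2 to 17.4 RPM in young and 14.9, 12.4 and 26.2 RPM in aged libraries, and at 17.7 to 18.8 RPM in all 4 labelled ones, with log2 fold changes of 0.29 (limma adjusted p = 0.553) and -0.05 (limma adjusted p = 0.959). It made up 46.5% to 65.7% of the family's RPM per kb in each library, the largest share of the 5 in all 10.

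The remaining family members were under the filter. Gabarapl1 was at 6.30, 6.72 and 6.48 RPM in young, 4.54, 6.46 and 2.67 RPM in aged, 8.17 and 6.35 RPM in labelled control and 6.57 and 4.63 RPM in labelled deltaMG libraries. The groups overlapped, and the log2 fold change in ageing was -0.49 with a limma adjusted p of 0.347. Gabarapl2 was at 1.58, 1.97 and 1.44 RPM in young, 2.51, 2.62 and 2.16 RPM in aged, 2.53 and 2.26 RPM in labelled control and 1.43 and 1.16 RPM in labelled deltaMG libraries. It was the only member with all aged libraries above all young ones, and the labelled deltaMG libraries were below the labelled control. In the fit with a minimum of 1 RPM its log2 fold change was 0.37 in ageing (limma adjusted p = 0.517) and -0.56 in the labelled comparison (limma adjusted p = 0.477). Map1lc3a, at 0.358 to 2.21 RPM, had as few as 3 reads in a library.

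Aged replicate 3 was the highest of all 10 libraries for 9 of the 34 members, or 26.5%. These were Ulk1, Atg9a, Atg3, Atg7, Map1lc3b, Gabarap, Optn, Tax1bp1 and Tfeb. It was also the highest for 19.3% of the 10800 genes of at least 1 RPM. Labelled control replicate 1 was the highest for more of those genes, 20.6%, and for 6 members, or 17.6%, among them Sqstm1. Aged replicate 3 had the highest neutrophil marker sum, 4323 RPM, against 969 and 1677 RPM in the other aged libraries and 560 to 1432 RPM in the young. Its monocyte marker sum of 835 RPM was also the highest. The part of those cells in the levels of the 9 genes was not tested. Without that library the aged values of Map1lc3b and Gabarap lie inside the range of the young.

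Epg5 tethers autophagosomes to lysosomes and is known to bind RAB7. It was at 9.30, 9.67 and 12.7 RPM in young, 18.8, 15.1 and 9.65 RPM in aged, 13.8 and 13.5 RPM in labelled control and 13.5 and 11.1 RPM in labelled deltaMG libraries. In 2 of 3 aged libraries it was above all the young, and in aged replicate 3 it was within their range. The log2 fold change in ageing was 0.39 (limma adjusted p = 0.330), and 0.64 (limma adjusted p = 0.0910) without aged replicate 3. In the labelled comparison it was -0.15 (limma adjusted p = 0.846), with the sign reversed to 0.25 under the neutrophil covariate.

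Tfeb and Tfe3 encode the related transcription factors that drive lysosomal and autophagy genes. Tfe3 was at 27.4, 31.3 and 25.6 RPM in young, 21.1, 25.9 and 22.1 RPM in aged, 25.3 and 23.0 RPM in labelled control and 22.0 and 29.8 RPM in labelled deltaMG libraries. The groups overlapped, with log2 fold changes of -0.28 (limma adjusted p = 0.330) and 0.08 (limma adjusted p = 0.876). Tfeb was at 4.41, 3.77 and 4.03 RPM in young and 2.98, 4.34 and 5.21 RPM in aged libraries, and at 2.97 and 3.81 RPM in labelled control and 4.42 and 3.91 RPM in labelled deltaMG libraries. In the fit with a minimum of 1 RPM its log2 fold changes were 0.01 (limma adjusted p = 0.992) and 0.24 (limma adjusted p = 0.810). Per kilobase Tfe3 was the higher of the pair, at 2.74 against 0.703 RPM per kb.

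Around these 34, a list of further autophagy genes was read in the same fit, 73 of which were in the table and 35 tested. In ageing 1 rose and 1 fell, 2 of 35 beside 6.14% of all tested genes, with a median log2 fold change of -0.07 beside -0.05. In the labelled comparison 1 of 35 fell, beside 3.78%, with a median of -0.01 beside -0.02. Vmp1, an endoplasmic reticulum protein needed for autophagosomes to form, was at 23.8, 25.9 and 24.0 RPM in young and 52.0, 52.4 and 51.4 RPM in aged libraries, against 24.5 and 23.4 RPM in labelled control and 34.4 and 25.3 RPM in labelled deltaMG libraries. The aged libraries lay close together and above all others. This was a 2.07-fold rise with a limma adjusted p of 0.000492, which passed in all 24 other settings. No setting separated age from sex, and exon overlap of Vmp1 with other genes was not examined. None of the 9 tested genes of autophagosome to lysosome fusion and none of the 9 further receptors was called in either comparison.

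Among 14 tested genes of mTORC1 and AMPK, the nutrient sensors upstream of ULK1, 1 was called in each comparison, beside 6.14% and 3.78% of all tested genes. Ddit4, a stress-induced inhibitor of mTORC1, fell in ageing from 8.67, 15.1 and 19.1 RPM in young to 2.82, 5.55 and 4.70 RPM in aged libraries, a 2.80-fold lower level with a limma adjusted p of 0.0221. The call was lost in 6 of 23 other settings, among them without young replicate 2 (0.0768), young replicate 3 (0.0867) or aged replicate 1 (0.0882). Fnip1, a partner of folliculin and AMPK, was at 44.0 and 35.7 RPM in labelled control and 22.2 and 24.3 RPM in labelled deltaMG libraries. Its libraries labelled control were above all 8 others, whose values were 22.2 to 33.8 RPM. The labelled difference was a 1.68-fold lower level with a limma adjusted p of 0.0479, and it was lost in 13 of 23 other settings. Among these were the neutrophil covariate (adjusted p = 0.204) and leaving out either library labelled control (0.398 and 0.114), either labelled deltaMG (0.289 and 0.129), young replicate 1 (0.0684) or 2 (0.05003) or aged replicate 1 (0.0631).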

How the data were processed

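Microglia were isolated with magnetic beads (MACS), and total RNA was amplified with the Ovation RNA-Seq System V2 and made into Ion Xpress Plus Fragment libraries, per the labels' protocols. GRCm38, mm10 and FastQC are named in the submitters' processing notes. Aligner, counter and strand setting were not given in the sources used here. The deposited values were taken to be RPM, since most were whole multiples of a single step per library: 94.4% to 94.7% of values up to 500 reads were within 0.05 of a whole read. Whole reads could not be recovered for all genes, so no count model was used.

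The log2(RPM + 1) values entered limma 3.58.1 (R 4.3.3) with 4 groups sharing 1 estimate of the spread (6 residual degrees of freedom, mean-dependent prior). A gene was tested if it reached 10 RPM in 2 or more of the 10 libraries, and a Benjamini-Hochberg adjusted p under 0.05 was a call. Values in every library are given for called members and, in each role group, for the member with the highest mean RPM and with the smallest p in each comparison. Gabarap and some ranges were added after their values were seen. Members and lists were chosen with earlier results of these data known. Alternatives covered the filter, pseudocount, scaling, weights, moderation, replicate block, neutrophil score and leaving out each library. Voom on estimated reads was added after the data were seen. Gene positions came from GENCODE M21, upstream sequences from RefSeq (GRCm38.p6). Figures were drawn with matplotlib 3.10.9.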

Additional observations from a re-analysis of the deposited data

Results flagged for a closer look

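By the limma test of the difference, the labelled deltaMG minus labelled control effect differed from the aged minus young effect for 3 autophagy genes. These were 1 of 14 members and 2 of 35 further genes tested, beside 4.79% of all tested genes. Age and sex cannot be told apart in the aged and young libraries. For Sqstm1 the difference was -1.16 on the log2 scale (adjusted p = 0.0375), with the libraries labelled deltaMG lower and aged and young libraries overlapping. The call was kept in 13 of 22 other settings and lost without young replicate 2 (0.0729) or 3 (0.0666), aged replicate 1 (0.0859), either library labelled control (0.1799 and 0.127) or labelled deltaMG replicate 1 (0.153).

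For Ddit4 the difference was 2.07 (adjusted p = 0.0430). Aged libraries were all below the young, while the libraries labelled deltaMG, at 5.97 and 15.5 RPM, overlapped those labelled control, at 7.58 and 4.94 RPM. For Prkab1, a regulatory subunit of AMPK, it was 1.05 (adjusted p = 0.0449). Prkab1 was at 15.4, 16.1 and 16.3 RPM in young and 12.1, 9.69 and 12.1 RPM in aged libraries, against 12.04 and 10.2 RPM in labelled control and 14.1 and 20.5 RPM in labelled deltaMG libraries. Both the Ddit4 and the Prkab1 call were kept in 11 of 22 other settings. Each was lost without young replicate 2 or 3, aged replicate 1, either library labelled control or labelled deltaMG replicate 2, with adjusted p up to 0.242 for Ddit4 and 0.232 for Prkab1, both without labelled deltaMG replicate 2. The Prkab1 call was also lost without young replicate 1 (0.0878) or aged replicate 2 (0.0658).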

How the results depend on the processing

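The number of members called in ageing was 0 except with array weights (1, Ulk2) and ranged from 0 to 1 as each library was left out. In the labelled comparison and in the difference of effects, the 1 call became 0 with a minimum of 50 RPM (a minimum Sqstm1 did not reach), no filter, no variance trend and the replicate block, and ranged from 0 to 1 as libraries were left out. The cause was not tested.

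Genes called in ageing, 255, became 116 with a minimum of 50 RPM, 131 with no filter, 163 with the neutrophil score and 116 with own groups only, and 92 to 419 as libraries were left out. In the labelled comparison 157 became 62, 88, 357 with array weights and 476 with own groups only, and 22 to 307. For the difference 199 became 86, 115, 344 with array weights and 466 with the neutrophil score, and 61 to 261. The ageing split of 131 higher and 124 lower became 229 and 131 with median-of-ratios rescaling and 227 and 116 with equal totals.

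Replicate numbers were not taken to pair the libraries. Deviations from the group mean of same-numbered aged and young libraries correlated at -0.14, -0.24 and -0.39. With 2 labelled libraries a group, the same-numbered pairs give a single value by construction, 0.12, which cannot settle the pairing there. With the replicate block 66 genes were called in ageing, 69 in the labelled comparison and 102 for the difference, with 0 members called in each and 1, 0 and 0 further pathway genes.

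Further pathway genes called in ageing, 2, became 1 with a minimum of 50 RPM, no filter and voom, and 1 to 2 as libraries were left out. In the labelled comparison 1 became 0 with a minimum of 1 or 50 RPM, no filter, quantile normalization, no variance trend and the neutrophil score, 2 with median-of-ratios rescaling, equal totals, array weights and voom, 3 with own groups only, and 0 to 1 without single libraries. For the difference 2 became 1 with a minimum of 1 RPM and no variance trend, 0 with a minimum of 50 RPM and no filter, 5 with array weights and 4 with the neutrophil score, and 0 to 3 without single libraries.

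With the neutrophil score, Rab7 changed sign to -0.051 in ageing and -0.19 in the labelled comparison, Optn to -0.091 in ageing and Epg5 to 0.25 in the labelled comparison. Rab7 in ageing ranged from -0.017 (without aged replicate 3) to 0.36 as libraries were left out. The 20 members under 10 RPM had few reads, which limits what could be detected for them.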
